A study of Mus musculus with 27 samples.

Results

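The transcriptional output of FGF-ERK signalling was followed through 10 genes, Etv1, Etv4, Etv5, Egr1, Dusp4, Dusp6, Spry1, Spry2, Spry4 and Spred1, in mouse stem cells that span naive, formative and primed pluripotency. The genes were taken by symbol from an RNA-seq table in FPKM, a measure of abundance scaled for transcript length and library depth, which holds all 10 of them among 23604 genes in 19 libraries. All cells were labelled wild type. Naive mESCs (n = 2) were kept without feeders in 1 µM of the MEK inhibitor PD035901, as the labels spell it, with 3 µM Chir99021 and 1000 units/ml of human LIF, and EpiLCs (n = 2) had been moved to N2B27 that held bFgf2 at 12 ng/ml, Activin A at 20 ng/ml and KSR at 1%. EpiSCs (n = 2) grew on mitomycin C-treated mouse embryonic fibroblasts with Activin A and bFGF2 at the same doses, 15% KSR and 5 µM XAV939, an inhibitor of Wnt/β-catenin signalling. Epiblastoids, 3D structures formed from mESCs in Matrigel and EpiLC medium, were sequenced on days 2, 3 and 4 with 1 library each. Formative pluripotent stem cells (fPSCs) grew in N2B27 with Activin A and bFgf2 at these doses, 5 µM XAV939 and no KSR. The study's text gives 3D culture in Matrigel for fPSCs, and 2D culture for EpiLCs and EpiSCs. Culture format, KSR and state therefore cannot be told apart between fPSCs and these groups. The same holds for XAV939 against EpiLCs, whose medium had none, and for feeders against EpiSCs. The fPSCs gave 1 library at passage 1 (P1), 7 long-term libraries and 2 libraries at P10 of lines derived from E5.5 and E6.5 epiblasts. Of the 7, P10, P20 and P30 belong to a first deposit, and ROSAmTmG P12, BVSC P14, 46C P24 and CMT P11, whose titles name a line, to a second one, whose labels write the XAV939 dose in mM. By the study's text, 46C cells carry a Sox1-GFP reporter, BVSC cells a Blimp1 and Stella reporter, and ROSAmTmG cells the fluorescent protein tdTomato. The labels do not name the line of the first deposit. The study's text gives it as CMT, and P11 of CMT as a passage that had been cryopreserved. CMT P11 is thus of the same line as the first deposit and close to P10 in passage, and for it deposit and freezing cannot be told apart, while for the other 3 libraries line, passage and deposit cannot. Nothing in the labels says that libraries of a group came from separate cultures, and p-values then measure the spread between these libraries only.

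In this pathway FGF binds its receptors, Ras is loaded with GTP, and Raf and MEK pass the signal to the kinases ERK1 and ERK2. MEK inhibitors of the PD family keep naive cells from leaving self-renewal, and FGF-ERK signalling drives the exit from the naive state. ERK induces its own antagonists, so that phosphatases such as Dusp6 and Dusp4, which take phosphate off ERK, and Sprouty and Spred proteins, which act between receptor and Raf, are widely read as a record of pathway activity together with the ETS factors of the Etv1, Etv4 and Etv5 subfamily and the immediate early gene Egr1. RNA levels alone were measured here, not the activity of the kinases. In bulk samples fewer cells with a transcript and less transcript per cell cannot be told apart.

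From the smallest steps in the values, library depth was estimated at 13000000 to 36300000 fragments, and 10034 to 10933 genes had at least 1 FPKM in a library. By naive and formative marker genes the states followed their labels. The 9 naive markers summed to 3231 to 3772 FPKM in mESCs and to at most 682 elsewhere. All 6 formative markers were called higher in EpiLCs and in fPSCs than in mESCs. A list of 6 primed and lineage markers was low in mESCs, at 3.43 to 6.15 FPKM, but did not set EpiSCs apart. It summed to 49.1 and 60.9 FPKM in EpiSCs, 38.4 to 415 in long-term fPSCs and 823 in Epiblastoids on day 4. EpiSC libraries also held RNA of fibroblast genes. The 18 genes of a fibroblast list summed to 1970 and 2322 FPKM in the EpiSC libraries, against 188 to 272 in mESCs, 77.0 to 80.6 in EpiLCs and 38.4 to 82.7 in long-term fPSCs, and 13 to 14 of the 18 reached 1 FPKM in EpiSCs. All 13 of these genes that were tested were called higher in EpiSCs than in mESCs. Among the fitted libraries, Col1a1, Col3a1, S100a4, Fbn1 and Twist2 reached 1 FPKM only in EpiSCs. They passed the filter through that group alone, so their calls add no support. Col1a1, a defining fibroblast collagen, stood at 111 and 153 FPKM in EpiSCs and below 1 FPKM in every other library, while Fap was at or near 0 in all. The part of feeder cells in the EpiSC values was not tested.

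Promoter sequence was looked up for the members in RefSeq (GRCm38.p6), which gave windows of 250 bases before to 50 after a start for 6 of 10 members, Spred1, Spry1, Dusp6, Etv1, Spry2 and Etv5. Etv4, Dusp4, Egr1 and Spry4 had no entry. Each window was found at 1 place in the mm9 genome, where marks of fPSC chromatin were read. Shown are the windows of Dusp6 and Spry2, the members with the highest mean H3K4me3 within 5000 bp of the start, and both starts of Etv1, which differ in CpG content and methylation. Capitals mark CpG, the sites at which methylation was read, and sequences run 5′ to 3′ on the strand of the gene.
Dusp6: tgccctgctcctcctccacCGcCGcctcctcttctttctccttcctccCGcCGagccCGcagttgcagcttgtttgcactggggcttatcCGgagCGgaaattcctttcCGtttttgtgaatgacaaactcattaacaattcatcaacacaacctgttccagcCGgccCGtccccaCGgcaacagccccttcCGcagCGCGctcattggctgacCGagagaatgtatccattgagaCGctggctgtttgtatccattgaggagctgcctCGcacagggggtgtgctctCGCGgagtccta
Spry2: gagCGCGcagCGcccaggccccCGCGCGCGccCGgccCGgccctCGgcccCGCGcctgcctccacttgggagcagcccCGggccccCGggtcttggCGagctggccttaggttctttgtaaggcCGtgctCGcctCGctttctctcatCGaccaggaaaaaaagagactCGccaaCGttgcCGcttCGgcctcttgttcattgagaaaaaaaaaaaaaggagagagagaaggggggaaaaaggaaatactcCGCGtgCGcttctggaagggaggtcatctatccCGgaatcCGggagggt
Etv1, first start: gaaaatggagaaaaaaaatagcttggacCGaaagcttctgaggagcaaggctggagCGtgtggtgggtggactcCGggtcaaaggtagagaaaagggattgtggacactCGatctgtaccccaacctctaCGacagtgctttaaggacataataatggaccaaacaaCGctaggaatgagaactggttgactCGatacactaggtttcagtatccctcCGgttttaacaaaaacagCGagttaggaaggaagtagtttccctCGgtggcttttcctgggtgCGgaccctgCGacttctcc
Etv1, second start: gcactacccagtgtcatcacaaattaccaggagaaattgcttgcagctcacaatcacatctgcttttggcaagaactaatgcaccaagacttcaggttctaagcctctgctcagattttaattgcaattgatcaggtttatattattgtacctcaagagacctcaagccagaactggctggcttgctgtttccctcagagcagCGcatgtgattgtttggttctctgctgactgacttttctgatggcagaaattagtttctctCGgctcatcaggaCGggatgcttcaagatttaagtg
They lie at chr10:98725615-98725914 (+), chr14:106295987-106296286 (-), chr12:39506419-39506718 (+) and chr12:39510048-39510347 (+) of mm9.

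The ERK phosphatases and Spry4 were low in mESCs and well expressed in the other groups. Dusp6, the cytoplasmic phosphatase specific for ERK, stood at 2.39 and 2.58 FPKM in the mESC libraries, at 73.5 and 87.4 in EpiLCs and at 33.2 and 46.7 in EpiSCs. In long-term fPSCs it ran from 29.6 to 59.3 with a median of 48.8. Every library outside mESCs therefore held more than 10 times the Dusp6 level of mESCs, and none overlapped with them. The mean was 32.4-fold higher in EpiLCs, 19.5-fold higher in fPSCs and 16.1-fold higher in EpiSCs than in mESCs.

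Dusp4, a nuclear MAP kinase phosphatase, was measured at 0.803 and 0.104 FPKM in mESCs, values that rest on about 31.6 and 5.96 estimated fragments. It reached 39.9 and 46.5 FPKM in EpiLCs and 36.8 and 58.0 in EpiSCs. Long-term fPSCs held 7.45 to 22.9 FPKM, with a median of 20.0. They lay above mESCs and below EpiLCs and EpiSCs, without overlap with these 3 groups. Spry4, a Sprouty inhibitor of receptor tyrosine kinase signalling, showed the same step from mESCs to the other groups. It went from 0.555 and 0.151 FPKM in mESCs to 22.8 and 13.8 in EpiLCs. EpiSCs held 14.4 and 16.5 FPKM and fPSCs 8.43 to 20.2, with a median of 12.5.

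Egr1, a zinc finger factor transcribed within minutes of ERK activation, had the lowest mean of the members in mESCs, with 0.171 and 0.116 FPKM, or about 7.63 and 7.49 estimated fragments. Its replicates lay far apart. The EpiLC libraries stood at 12.4 and 2.14 FPKM, the EpiSC libraries at 3.24 and 3.83, and fPSCs spread from 0.714 to 18.2 with a median of 3.38. All of these values were above those of mESCs.

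Spry1 and Etv1 were low in naive cells and moderate elsewhere. Spry1 was read at 1.62 and 0.732 FPKM in mESCs, 9.14 and 9.58 in EpiLCs, 2.90 and 6.54 in EpiSCs and 5.18 to 7.84 in fPSCs. Etv1 stood at 1.08 and 0.858 FPKM in mESCs, 6.05 and 5.95 in EpiLCs, 8.89 and 7.18 in EpiSCs and 8.58 to 16.7 in fPSCs. EpiLCs held the highest Spry1 values among these groups and fPSCs the highest Etv1 value.

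Spry2, Spred1 and Etv4 were already well expressed in mESCs. Spry2 stood at 17.0 and 13.6 FPKM there, at 26.0 and 19.6 in EpiLCs, at 41.7 and 44.9 in EpiSCs and at 26.2 to 67.1 in fPSCs. Spred1, a Sprouty-related protein that brings neurofibromin to Ras, went from 5.19 and 5.70 FPKM in mESCs to 23.4 and 14.4 in EpiLCs, 38.6 and 25.8 in EpiSCs and 17.2 to 32.6 in fPSCs. Etv4 went from 16.9 and 15.0 FPKM to 44.2 and 38.9 in EpiLCs, 31.8 and 39.9 in EpiSCs and 28.7 to 71.5 in fPSCs. Each of these genes was higher in every EpiLC, EpiSC and long-term fPSC library than in either mESC library.

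Etv5 did not follow this step. It was expressed at 121 and 86.3 FPKM in mESCs, the highest level of any member there, at 171 and 113 in EpiLCs, at 76.8 and 94.1 in EpiSCs and at 43.3 to 166 in fPSCs. The mESC range overlapped with that of EpiLCs, of EpiSCs and of fPSCs. High Etv5 RNA and Dusp4, Spry4 and Egr1 RNA under 1 FPKM were thus read in the same mESC libraries.

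**Figure D1:**
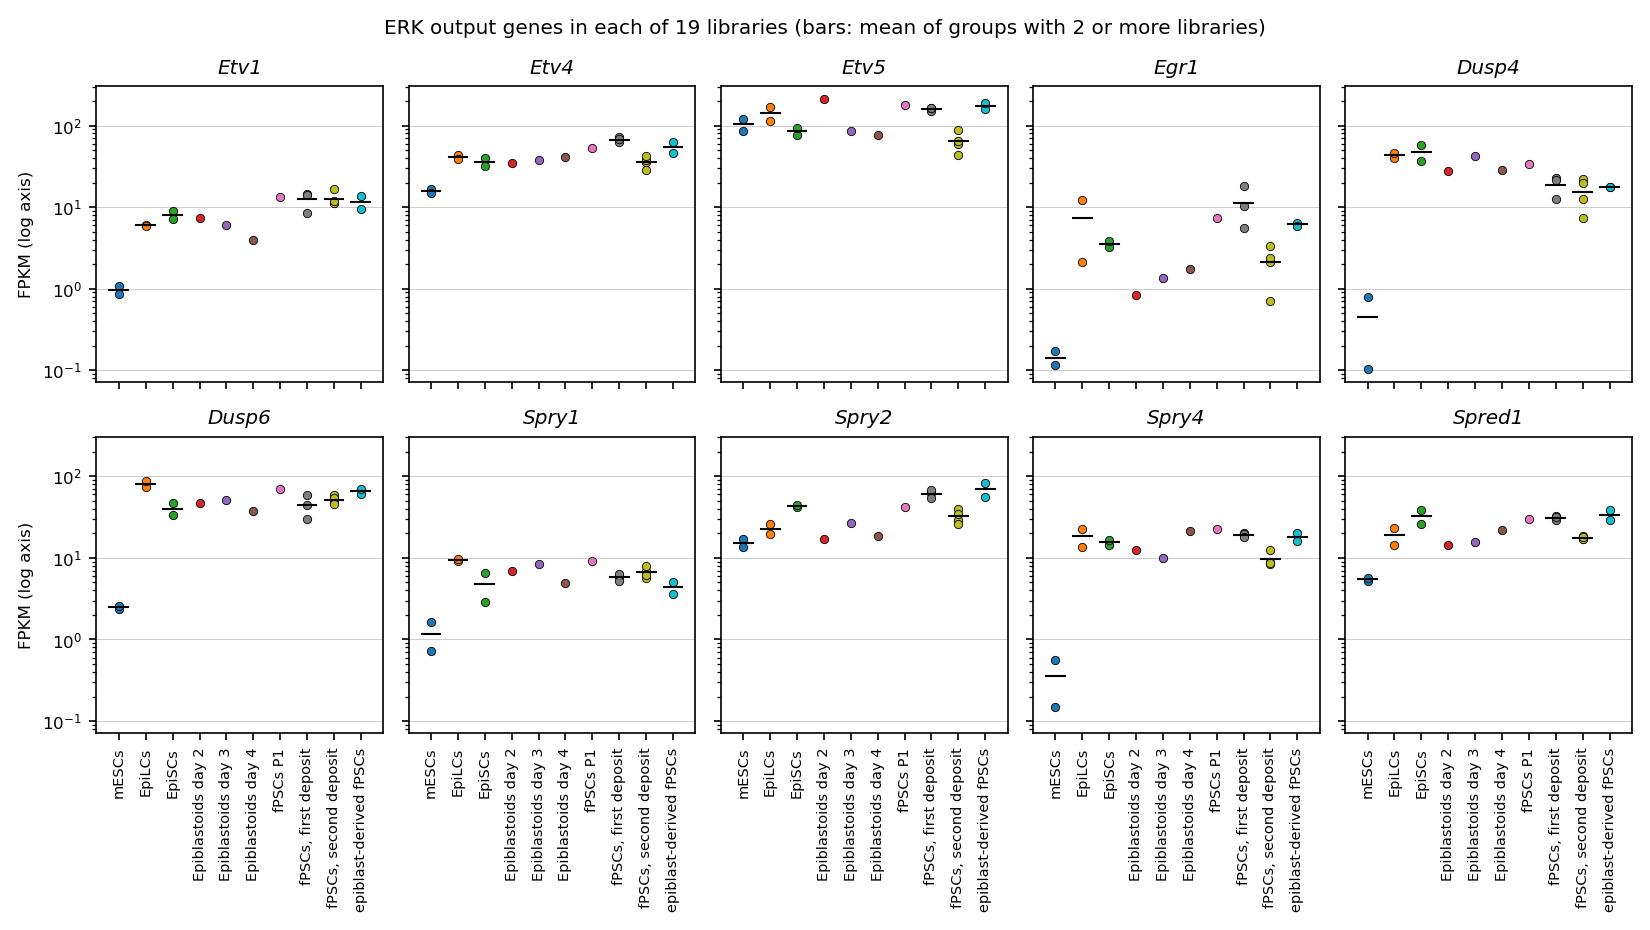
FPKM of the 10 genes on a log axis, with 1 point per library and a bar at the mean of groups with 2 or more libraries. For 9 of 10 genes the points of mESCs lie below those of all other groups shown, as for 13.4% of 12682 genes, while for Etv5 the mESC points, at 121 and 86.3 FPKM, lie within the range of the others.

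The first question was how far these genes differ between mESCs and cells outside the naive state. Only mESCs were kept with the MEK inhibitor, Chir99021 and LIF, and only they lacked bFgf2 and Activin A. State and medium therefore cannot be told apart in any comparison with mESCs. Genes were called in limma on log2(FPKM + 1) where the fold change reached 1.5 and the p adjusted by Benjamini and Hochberg was under 0.05, and differences are given on that log2 scale. By this rule 7 of 10 members were called higher in EpiLCs than in mESCs and none lower, where 12.2% of 12513 genes were called higher and 29.6% in either direction. The differences were 4.97 for Dusp4 (SE 0.46, adjusted p = 3.88e-06), 4.54 for Dusp6 (SE 0.29, adjusted p = 1.21e-07) and 3.81 for Spry4 (SE 0.43, adjusted p = 2.34e-05). Spry1, Etv1, Spred1 and Etv4 differed by 2.28, 1.83, 1.59 and 1.33. Egr1 differed by 2.51 with an SE of 0.94 and did not pass (adjusted p = 0.0604), and neither did Spry2 at 0.54 (95% interval -0.33 to 1.41) nor Etv5 at 0.44 (-0.83 to 1.71). The median of the 10 differences was 2.06, beside -0.06 over all genes tested. Etv4 lost its call when any 1 of the 4 libraries was left out, Spred1 without EpiLCs replicate 1, and Egr1 gained one without EpiLCs replicate 2. In such fits, here and in the comparisons that follow, the lone library is assumed to vary like the other groups.

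In fPSCs 9 of 10 members were called higher than in mESCs, all but Etv5, where 17.3% of genes were called higher and 40.3% in either direction. Dusp6 differed by 3.80 (SE 0.23, adjusted p = 3.07e-08), Dusp4 by 3.59 (SE 0.37, adjusted p = 4.85e-06), Spry4 by 3.38 (SE 0.35, adjusted p = 4.63e-06) and Etv1 by 2.77 (SE 0.21, adjusted p = 2.79e-07). The differences of Egr1, Spred1, Spry1, Etv4 and Spry2 were 2.20, 1.87, 1.76, 1.51 and 1.42. Within each deposit the step was present as well. With fPSCs of the first deposit alone 10 members were called higher (19.9% of genes higher, 51.8% in either direction), Etv5 among them at 0.65, and with those of the second deposit alone 9 (21.0% of genes higher, 43.8% in either direction), with Etv5 at -0.71 and not called (adjusted p = 0.0594). Over all 7 libraries Etv5 differed by -0.12 (95% interval -1.15 to 0.90). Egr1 lost its call without either mESC library, and Spry2 without mESCs replicate 2.

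In EpiSCs 8 members were called higher than in mESCs and none lower, where 23.1% of genes were called higher and 47.8% in either direction. Dusp4 differed by 5.06 (SE 0.46, adjusted p = 1.57e-06), Spry4 by 3.62 (SE 0.43) and Dusp6 by 3.54 (SE 0.29), followed by Spred1 at 2.34, Etv1 at 2.19, Spry2 at 1.45, Spry1 at 1.35 and Etv4 at 1.12. Egr1 at 1.99 (adjusted p = 0.0965) and Etv5 at -0.26 (95% interval -1.54 to 1.01) did not pass. Etv4 lost its call without any 1 of the 4 libraries, and Spry2 without EpiSCs replicate 2 or mESCs replicate 2. The fibroblast sums given above, 1970 to 2322 FPKM in EpiSCs against 188 to 272 in mESCs, stand beside these differences.

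**Figure D2:**
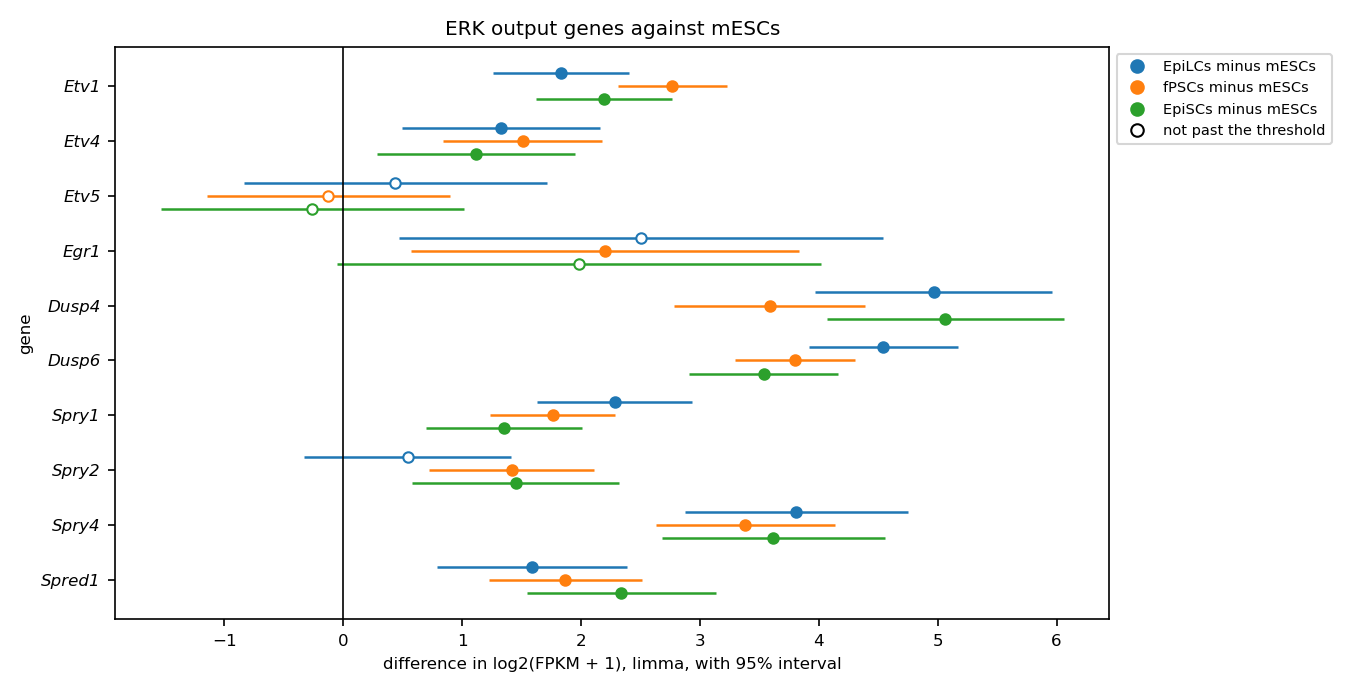
Difference of each gene from mESCs in log2(FPKM + 1), with its 95% interval from limma, for EpiLCs, fPSCs and EpiSCs. Filled points passed the threshold. Dusp4, Dusp6 and Spry4 lie between 3.38 and 5.06 in all 3 comparisons and the intervals of Etv5 include 0. The 3 comparisons share the mESC libraries.

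The second question was whether the later states differ from each other. Between EpiSCs and EpiLCs, where 35.9% of genes were called in either direction, 2 members passed. Dusp6 was lower in EpiSCs by -1.01 (SE 0.29, adjusted p = 0.0163) and Spry1 by -0.93 (SE 0.30, adjusted p = 0.0287). Dusp4 differed by 0.10 (95% interval -0.90 to 1.10) and Spry4 by -0.19 (-1.13 to 0.74), intervals that leave room for a change of about 2-fold in either direction. Both calls were lost without EpiSCs replicate 1 and without EpiLCs replicate 2, and that of Spry1 without EpiLCs replicate 1 too.

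Against EpiLCs, 3 members were called in fPSCs, beside 13.8% of genes in either direction. Etv1 was higher by 0.94 (SE 0.21, adjusted p = 0.00910), and Dusp4 and Dusp6 were lower by -1.38 (SE 0.37, adjusted p = 0.0229) and -0.74 (SE 0.23, adjusted p = 0.0472). These 3 calls were made in each deposit alone. Etv1 differed by 0.91 in the first and 0.96 in the second deposit, Dusp4 by -1.19 and -1.53, and Dusp6 by -0.90 and -0.63. They were lost, with the direction kept, without either EpiLC library. Other members depended on the deposit. With the first deposit alone Etv4, Spry2 and Spred1 were called higher, which made 6 calls (25.8% of genes), and with the second alone Etv5 and Spry4 were called lower, which made 5 (21.2% of genes).

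Against EpiSCs, where 32.3% of genes were called, Dusp4 was the only member past the threshold. It was lower in fPSCs by -1.48 (SE 0.37, adjusted p = 0.00807), by -1.28 in the first deposit and by -1.62 in the second, and the call was lost without EpiSCs replicate 2, where the difference was -1.16. Dusp6 differed by 0.26 (95% interval -0.24 to 0.77). Etv1 differed by 0.57 (SE 0.21), a fold of 1.49, which is under the fold limit. Without EpiSCs replicate 2, Spry1 was called higher by 0.89. The first deposit alone gave 3 calls (31.5% of genes), with Etv4 at 0.90 and Etv5 at 0.91 higher, and the second alone gave 4 (46.5% of genes), with Etv1 higher at 0.60 and Spry4 and Spred1 lower at -0.64 and -0.80.

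**Figure D3:**
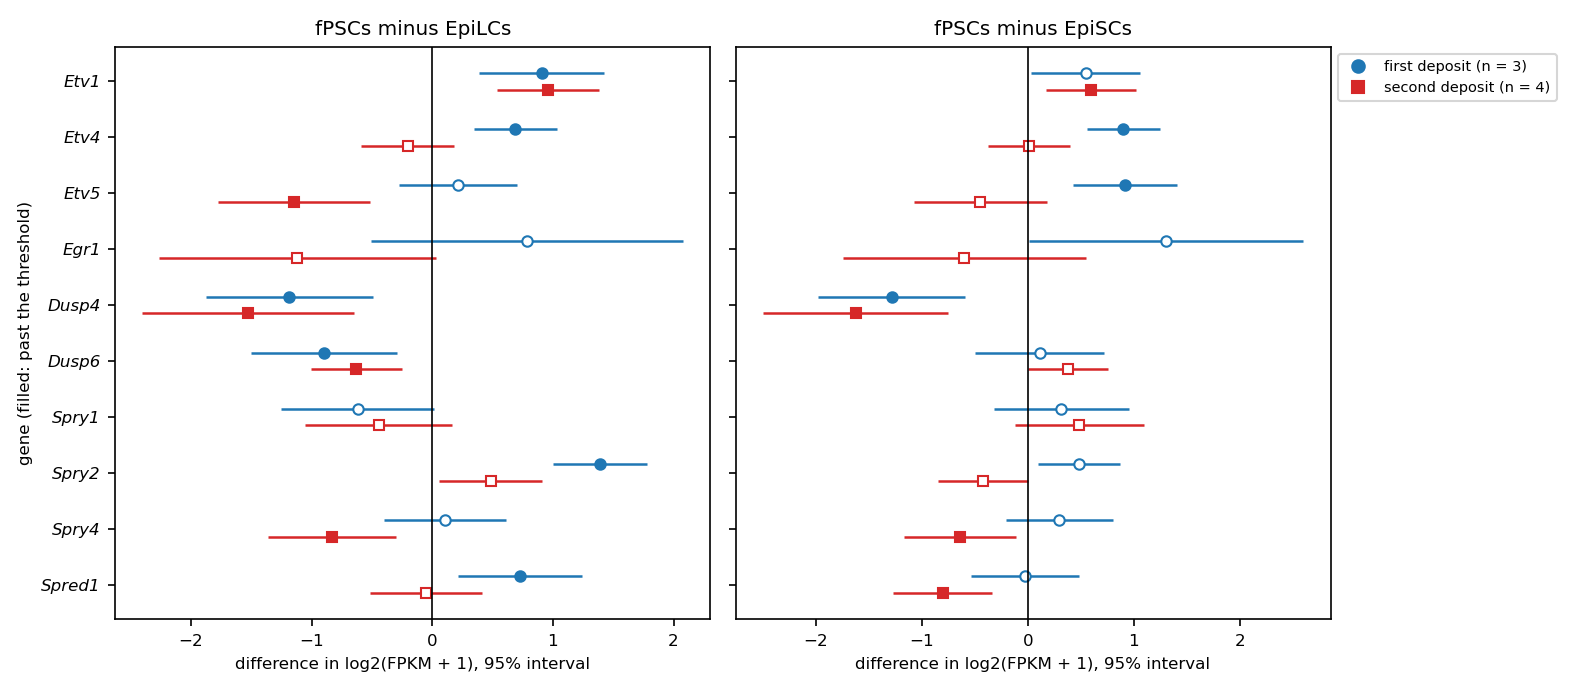
Difference of fPSCs from EpiLCs and from EpiSCs in log2(FPKM + 1), with 95% intervals from limma, fitted with the 3 fPSC libraries of the first deposit (circles) or the 4 of the second (squares). Filled points passed the threshold. Dusp4 is lower and Etv1 higher in both deposits, while Etv5 lies at 0.21 and -1.15 against EpiLCs. The fits share the EpiLC or EpiSC libraries.

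The deposits of fPSCs were compared directly. Of the members 6 were called lower in the second deposit and none higher, where 8.93% of 10930 genes were called lower and 29.7% in either direction, and where the median gene was higher by 0.19. Etv5 stood at 151, 166 and 166 FPKM in the first deposit and at 58.9, 43.3, 65.5 and 88.9 in CMT, 46C, BVSC and ROSAmTmG cells of the second. Egr1 stood at 18.2, 10.3 and 5.49 FPKM in the first and at 2.15, 2.39, 3.38 and 0.714 in the second. Neither gene overlapped between deposits, and the share of all genes without such overlap was not counted. The differences were -1.90 for Egr1 (SE 0.41, adjusted p = 0.00603), -1.36 for Etv5 (SE 0.21, adjusted p = 0.00141), -0.93 for Spry4, -0.91 for Spry2, -0.89 for Etv4 and -0.78 for Spred1 (SE 0.09, adjusted p = 4.48e-04).

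Spred1 was the most even of these, at 28.8 to 32.6 FPKM in the first deposit and 17.2 to 18.7 in the second. Spry4 stood at 18.1 to 20.2 and at 8.43 to 12.5 FPKM, Spry2 at 54.7 to 67.1 and at 26.2 to 40.1, and Etv4 at 63.0 to 71.5 and at 28.7 to 42.4. The other members did not pass. Dusp6 differed by 0.27 (95% interval -0.22 to 0.75), Spry1 by 0.17 (-0.13 to 0.47), Etv1 by 0.05 (-0.42 to 0.52) and Dusp4 by -0.34 (-1.15 to 0.47). Under upper-quartile scaling the median gene differed by 0.05 and the same number of members, 6, was called lower. The labels state a library kit for the second deposit only. With the second deposit reduced to CMT P11, 5 members were called lower (7.82% of genes lower, 22.6% in either direction), and Egr1 at -1.83 was not (adjusted p = 0.0560). That fit assumes that the lone library varies like the first deposit.

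Along passages and days single libraries were compared, without a test, and a member was counted at a log2 ratio of at least 1 in size. From EpiLCs to fPSCs P1, Etv1 passed at 1.02 (13.2 FPKM in P1), where 6.29% of genes passed. From P1 to P10 only Egr1 passed, at 1.18, with 7.47 and 18.2 FPKM (8.18% of genes). From P1 to P30 the phosphatases passed, Dusp4 at -1.36 with 34.3 and 12.7 FPKM and Dusp6 at -1.20 with 69.3 and 29.6 FPKM (8.51% of genes). Dusp4 read 34.3, 22.9, 21.2 and 12.7 FPKM at P1, P10, P20 and P30, and Dusp6 read 69.3, 59.3, 43.9 and 29.6. In the second deposit Dusp6 stood at 48.8 FPKM in CMT cells at P11 and 58.2 in 46C cells at P24, and Dusp4 at 22.0 and 20.0. BVSC cells at P14 held 54.7 FPKM of Dusp6 and 12.4 of Dusp4, and ROSAmTmG cells at P12 held 45.1 and 7.45.

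In Epiblastoids all members except Etv5 stayed above both mESC libraries on all 3 days, as did 26.5% of genes, although Spry2 on day 2, at 16.99 FPKM, stood barely above the higher mESC library at 16.96. From the EpiLC mean to day 2 Egr1 passed at -2.18, with 0.831 FPKM on day 2 (3.67% of genes). The EpiLC replicates stood at 12.4 and 2.14 FPKM. In log2(FPKM + 1) they stood at 3.74 and 1.65 and day 2 at 0.872, so against replicate 2 alone Egr1 would not pass. From day 2 to day 3 Etv5 passed at -1.29, from 209 to 84.7 FPKM (5.58% of genes). From day 3 to day 4 Spry4 passed at 1.04, from 9.91 to 21.5 FPKM (16.1% of genes). Dusp6 stayed at 46.9, 50.6 and 37.8 FPKM on days 2, 3 and 4, and Dusp4 at 27.5, 42.9 and 28.9. On day 4 the fibroblast list summed to 416 FPKM, of which 319 came from Fn1, while Col1a1 was at 0.866.

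Lines derived from epiblasts were compared with the 7 long-term fPSC libraries. No member was called by limma, beside 0.915% of 12562 genes, and none had an unadjusted p under 0.05. The smallest was 0.0531, for Spry2, which stood at 56.4 and 82.2 FPKM in the E5.5 and E6.5 lines and differed by 0.67 (95% interval -0.01 to 1.36). Etv5 stood at 158 and 188 FPKM and differed by 0.87 (-0.10 to 1.85), and Dusp6 at 61.2 and 70.4 and differed by 0.46 (-0.03 to 0.94). Both epiblast-derived libraries belong to the first deposit, and against its 3 libraries alone no member was called either. There Etv5 differed by 0.10 (95% interval -0.39 to 0.58), Spry2 by 0.16 (-0.29 to 0.60) and Dusp6 by 0.61 (0.04 to 1.19, adjusted p = 0.364 in limma). Dusp4 stood at 17.9 and 17.5 FPKM, inside the range of the other fPSCs.

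The rest of the pathway was read from lists of genes outside the 10 members. Their counts against mESCs stand beside 29.6% of all genes called in either direction in EpiLCs, 40.3% in fPSCs and 47.8% in EpiSCs. Of 16 tested immediate early and ERK-responsive genes, 3 were called higher and 3 lower in EpiLCs than in mESCs, 2 and 4 in fPSCs, and 10 and 1 in EpiSCs, with medians of -0.10, -0.02 and 1.44. Myc, a growth factor-responsive transcription factor, was higher in all 3 comparisons by 4.93, 4.68 and 3.99, from 0.749 ± 0.113 FPKM in mESCs (SD, n = 2) to 52.8 ± 11.7 in EpiLCs (n = 2). Srf, a partner of ternary complex factors, differed by 1.15 in EpiLCs. The ephrin receptor genes Epha4 and Epha2 went apart in fPSCs, by -3.48 and 0.86. Junb, an AP-1 subunit, fell by 1.57 in EpiLCs and Ier3, a stress-responsive early gene, by 1.77 in fPSCs. Phlda1 gave the largest rise of the list in EpiSCs, 4.26, from 0.956 ± 0.0894 to 38.9 ± 19.7 FPKM (n = 2 each).

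The same list was also counted between the later states. In EpiSCs 11 of the 16 genes were called higher than in EpiLCs and none lower, and in fPSCs 11 were called lower than in EpiSCs and none higher, with medians of 1.78 and -1.69. These are 68.8% of the list in each comparison, beside 35.9% and 32.3% of all genes. Phlda1 and Fosl1 gave the largest differences between EpiSCs and EpiLCs, 3.99 and 3.26, and Phlda1 and Ier3 between fPSCs and EpiSCs, -4.38 and -3.48. Without EpiSCs replicate 2 the counts fell to 7 and 6. Of the 13 fibroblast genes tested, 11 were called higher in EpiSCs than in EpiLCs and 12 were called lower in fPSCs than in EpiSCs. Of the 13, those named above passed the filter only through EpiSCs, so their calls add no support. The part of fibroblast RNA in these values was not tested.

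Among 9 other dual-specificity phosphatases, 4 were called higher and 1 lower in EpiLCs than in mESCs, 3 and 2 in fPSCs, and 5 and 1 in EpiSCs. Dusp9, a cytoplasmic phosphatase related to Dusp6, was higher by 3.71 in EpiLCs, 1.66 in fPSCs and 2.96 in EpiSCs, from 6.24 ± 0.549 FPKM in mESCs (SD, n = 2) to 93.7 ± 3.38 (n = 2), 22.4 ± 5.15 (n = 7) and 56.2 ± 15.3 (n = 2). Dusp3 was higher by 1.81 in EpiLCs and by 1.54 in fPSCs. Dusp5, a nuclear ERK phosphatase, gave the largest rise in EpiSCs, 4.68, and stood at 57.1 ± 9.66 FPKM there. Dusp14 differed by -0.97 in EpiLCs and -2.27 in fPSCs, and Dusp1 by -1.17 in fPSCs and -0.97 in EpiSCs.

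Of 8 other feedback inhibitors 2, 3 and 4 were called higher in EpiLCs, fPSCs and EpiSCs than in mESCs, and none lower. Spred3, of the Spred family, was higher in all 3, by 1.98, 2.52 and 3.03. Errfi1, which binds and inhibits the EGF receptor, was higher by 0.68 in EpiLCs and 2.82 in EpiSCs, and Spred2 by 1.66 in fPSCs. Of 10 other ETS factors none was called higher and 2 lower in EpiLCs, 1 and 3 in fPSCs, and 4 and 1 in EpiSCs, or 2, 4 and 5 of the 10 in either direction. Elk3, a ternary complex factor, differed by -1.79 in EpiLCs, -1.57 in fPSCs and 2.10 in EpiSCs. Ets1 rose by 0.62 in fPSCs and by 4.14 in EpiSCs, where it reached 16.9 ± 1.40 FPKM (n = 2). Etv3 differed by -0.84 in EpiLCs, Elf1 by -1.63 in fPSCs and Gabpa by -1.18 in EpiSCs.

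Among 7 FGF ligands and receptors 4 were called higher and none lower in EpiLCs, 4 and 1 in fPSCs, and 5 and 1 in EpiSCs. Fgf5, a marker of the early post-implantation epiblast, was higher by 5.59, 6.49 and 3.68, and reached 92.9 ± 13.0 FPKM in fPSCs (n = 7). Fgf15 rose by 4.31 in EpiLCs, and Fgf8 by 5.95 in fPSCs and 4.00 in EpiSCs. Fgf4, the main FGF of naive cells, differed by -3.60 in fPSCs and -4.60 in EpiSCs, from 95.1 ± 3.71 FPKM in mESCs (n = 2). Of 21 components of the Ras-ERK cascade 4 were called higher and 1 lower in EpiLCs, 6 and 3 in fPSCs, and 7 and 3 in EpiSCs, with medians of 0.20, 0.17 and 0.42. These are 23.8%, 42.9% and 47.6% of the list, near the shares of all genes. Eras, a Ras gene of embryonic stem cells, was higher by 1.86 in EpiLCs, 3.61 in fPSCs and 2.20 in EpiSCs. Ptpn11, the phosphatase Shp2, was higher by 0.99 in fPSCs and 1.46 in EpiSCs. Gab1, a docking protein, fell by 3.71 in fPSCs and by 2.37 in EpiSCs. Ksr1, a scaffold, was lower in EpiLCs and differed by -1.58 in fPSCs, and Rps6ka1 by -0.84 in EpiSCs.

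Over the 19 libraries the members' log2 values were compared with each other and with 7833 genes whose highest value was 10 FPKM or more. Spry1 stayed under 10 FPKM throughout and was left out. Pearson's r was 0.897 between Dusp6 and Spry4, 0.893 between Spry4 and Spred1 and 0.874 between Dusp6 and Dusp4. For Etv5 it ran from 0.0839 with Dusp4 to 0.443 with Egr1. The points share groups and deposits, and the 2 mESC libraries lie far below the rest for most members, so these values are a description without a test. The genes most like Dusp6 were Zfp664 (0.937) and Dnmt3b (0.935), those most like Spry4 were Lsr (0.960) and Lef1 (0.953), those most like Spred1 were Marcks (0.965) and Slc38a1 (0.962), and those most like Dusp4 were Sox4 (0.915) and Zswim4 (0.902). For Etv1 they were Phf6 (0.944) and Mapk4 (0.941), for Etv4 Klhdc3 (0.921) and Zcchc3 (0.915), for Etv5 Rest (0.916) and Klf16 (0.902), for Spry2 Proser1 (0.901) and Plk1 (0.886), and for Egr1 Ammecr1 (0.857) and Stard5 (0.853).

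The 10 genes are spread over 9 chromosomes of mm9. Dusp6 lies at chr10:98725865-98730122, Dusp4 at chr8:35870351-35882948, Spry1 at chr3:37538869-37543520, Spry2 at chr14:106291166-106296036, Spred1 at chr2:116947110-117008015, Etv1 at chr12:39505967-39594802, Etv4 at chr11:101631056-101646685, Etv5 at chr16:22381382-22439792, and Egr1 and Spry4 at chr18:35020861-35024638 and chr18:38745922-38760922. All are protein-coding genes of the GENCODE annotation of that build.

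Chromatin of the members was read in fPSCs at P10. H3K4me3, a mark of active or poised promoters, and H3K27me3, the mark of Polycomb repression, were deposited as RPKM in bins of 100 bp, and DNA methylation as the methylated fraction in windows of 100 bp. The files hold 1 track per assay, so no replicate error can be given, and coverage behind the methylation values is unknown. All 10 members stood above the median of 22072 genes for H3K4me3 within 5000 bp of the start site. Dusp6 and Spry2 had the highest means among them, 6.29 RPKM each, at the 99.8 percentile of all genes, followed by Spry4 at 5.30, Etv1 at 5.26 and Dusp4 at 4.98, at the 99.5, 99.5 and 99.3 percentiles. Spred1 stood at 3.30 and Etv5 at 3.07 RPKM. Egr1, Spry1 and Etv4 had the lowest means, 2.12, 1.82 and 1.72 RPKM, against a median of 1.13 over all genes, where 1 read in a bin is worth 1.24 RPKM. Within 1000 bp all 10 were above the median too, and the order changed, with Spry4 first at 11.5 RPKM, then Dusp6 at 10.8, Etv1 at 9.60 and after it Spry2.

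H3K27me3 within 5000 bp of the start varied between members. The members' median was 0.302 RPKM against 0.376 over all genes, where 1 read in a bin is worth 0.64 RPKM. Etv1, Spry2 and Dusp6 were low, at the 9.55, 21.2 and 23.2 percentiles, and the other members stood at the 40.5 percentile or above. Of the 10 members 3 were above the median of all genes: Egr1 at 0.911, Dusp4 at 0.644 and Etv5 at 0.395 RPKM. Within 1000 bp only Egr1 and Dusp4 were above the median of 0.305, and Etv5 stood at 0.122 RPKM. Egr1 reached the 79.9 percentile, and its highest bin, 7.09 RPKM, lay 2200 bp inside the gene from the start. Methylation within 1000 bp of the start was below the median of all genes, 0.374, for all 10. It was 0 at Spry2 and Egr1 and under 0.03 at Etv1, Etv5, Dusp4, Dusp6, Spry4 and Spred1. Etv4 and Spry1 had the highest fractions, 0.0981 and 0.101.

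**Figure D4:**
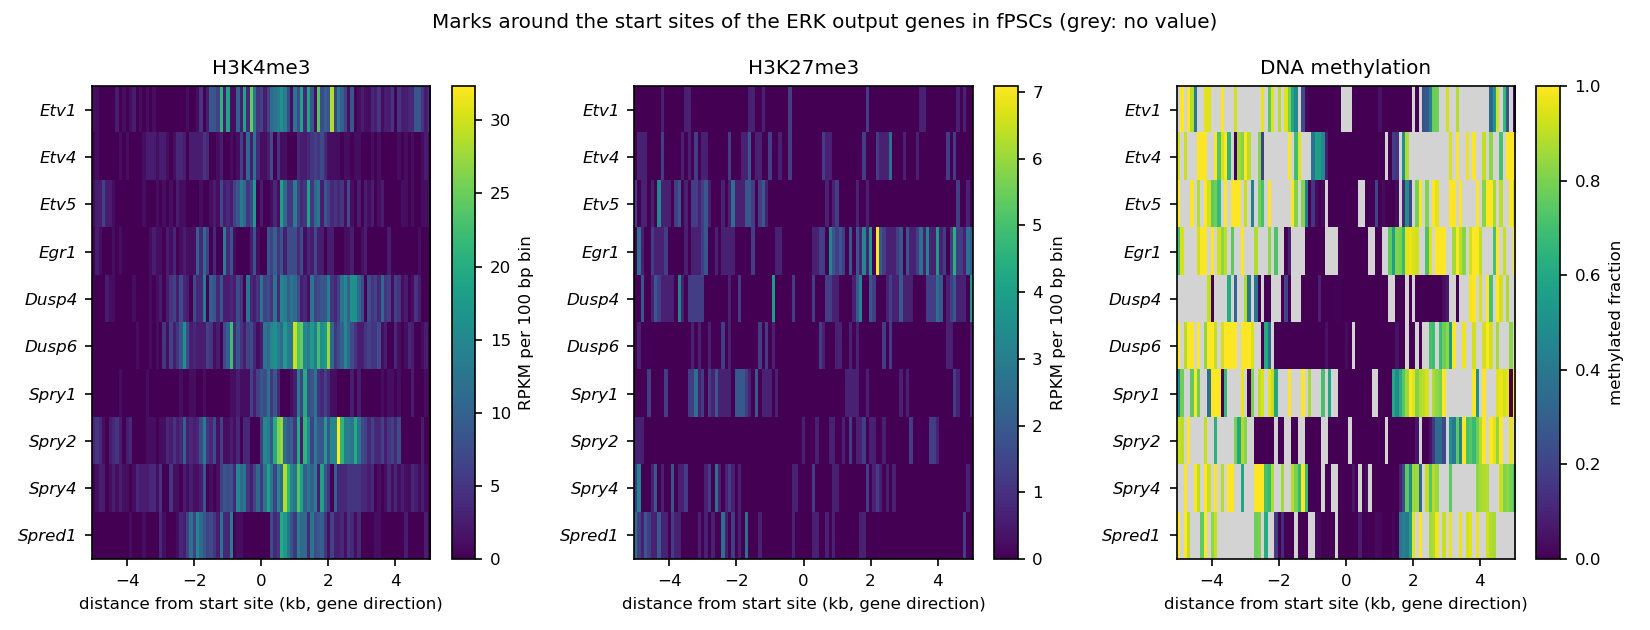
H3K4me3 and H3K27me3 (RPKM per bin of 100 bp) and methylated fraction around the start site of each gene in fPSCs, from 5 kb before to 5 kb after it in the direction of the gene. Grey windows have no methylation value. H3K4me3 is widest at Dusp4, Dusp6 and Spry2, the highest H3K27me3 bin is that of Egr1 at 7.09 RPKM, and windows within 300 bp of a start hold methylated fractions of 0 to 0.06.

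In the promoter windows printed above, marks differed between the starts of Etv1. The Dusp6 window held 19 CpG, a methylated fraction of 0.01 over 3 windows with a value and 4.98 RPKM of H3K4me3. The Spry2 window held 28 CpG, a fraction of 0 and 5.29 RPKM. The first start of Etv1 held 12 CpG, a fraction of 0 and 12.7 RPKM, and its second start 3 CpG, a fraction of 0.33 in the single window with a value and 3.42 RPKM. The remaining windows held 0.31 RPKM of H3K4me3 at Spred1, 6.22 at Spry1 and 0.622 and 8.40 at the starts of Etv5, with methylated fractions of 0 to 0.01.

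The 8 windows of the 6 members had a GC content of 44.0% to 74.0%, against a median of 52.7% over 32851 RefSeq windows, and an observed to expected CpG ratio of 0.207 to 1.03, against 0.384. On both strands 4 motifs were searched. The letters CCGGAA, a longer form of the ETS core GGAA, were found 1 time, in the Spry2 window at base 34 after the start. They are held by 14.9% of all windows. The shorter core GGAA was not searched for, and windows printed above hold it at other places. The AP-1 site TGANTCA (7.81% of windows), the cyclic AMP response element TGACGTCA (1.79%) and the CArG box (1.63%) were not found in the 8 windows. None of the 3 spelled-out motifs contains another. A match is a run of letters and no measured binding site.

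Single fPSCs of 4 clones were measured by counts per gene and cell. The labels put clones 1 and 2 in one sample and clones 3 and 4 in another, and 181 of 182 cells had at least 500 genes. Cells are numbered within a sample, and 86 numbers occur in both samples. The clones held 1501395 to 4712214 counts over 44 to 46 cells, with medians of 19078 to 33883 counts per cell. The values have no length scale and the clones differ in depth, so genes and clones are given side by side without a comparison. Spred1 had a count in 59.7% of cells (95% exact interval 52.1 to 66.9), Dusp6 in 54.1% (46.6 to 61.6), Spry2 in 53.6% (46.04 to 61.02), Etv5 in 53.0% (45.5 to 60.5) and Etv1 in 46.4% (39.0 to 54.0). Etv4 had one in 33.1%, Spry4 in 19.9%, Dusp4 in 17.7%, and Spry1 and Egr1 in 17.1% each. Intervals pool the cells of all clones and cover counting error only. Between clones the share ran from 36.4% to 77.8% for Etv5, from 31.8% to 62.2% for Etv1 and from 54.5% to 66.7% for Spred1. The pooled intervals are narrower than those of a single clone, so they cannot tell whether clones differ. Differences between clones were not tested. The data hold no cell type that lacks these genes, so the share from free RNA was not measured.

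Counts summed per clone gave 126 ± 43.7 CPM for Dusp6 (SD, n = 4 clones), 108 ± 17.8 for Spred1, 99.7 ± 46.1 for Spry2, 98.2 ± 23.0 for Etv5 and 78.9 ± 24.9 for Etv1. Egr1 was the most uneven, at 10.7, 0.925, 64.5 and 15.9 CPM in clones 1 to 4, from 16, 3, 304 and 39 counts. In clone 3 a single cell held 107 of the 304 Egr1 counts. Etv4 stood at 15.3, 31.8, 95.5 and 22.5 CPM, and 193 of its 450 counts in clone 3 came from 1 cell. Dusp6 stood at 69.3, 114, 164 and 156 CPM and had a count in 43.5% to 61.4% of the cells of a clone.

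**Figure D5:**
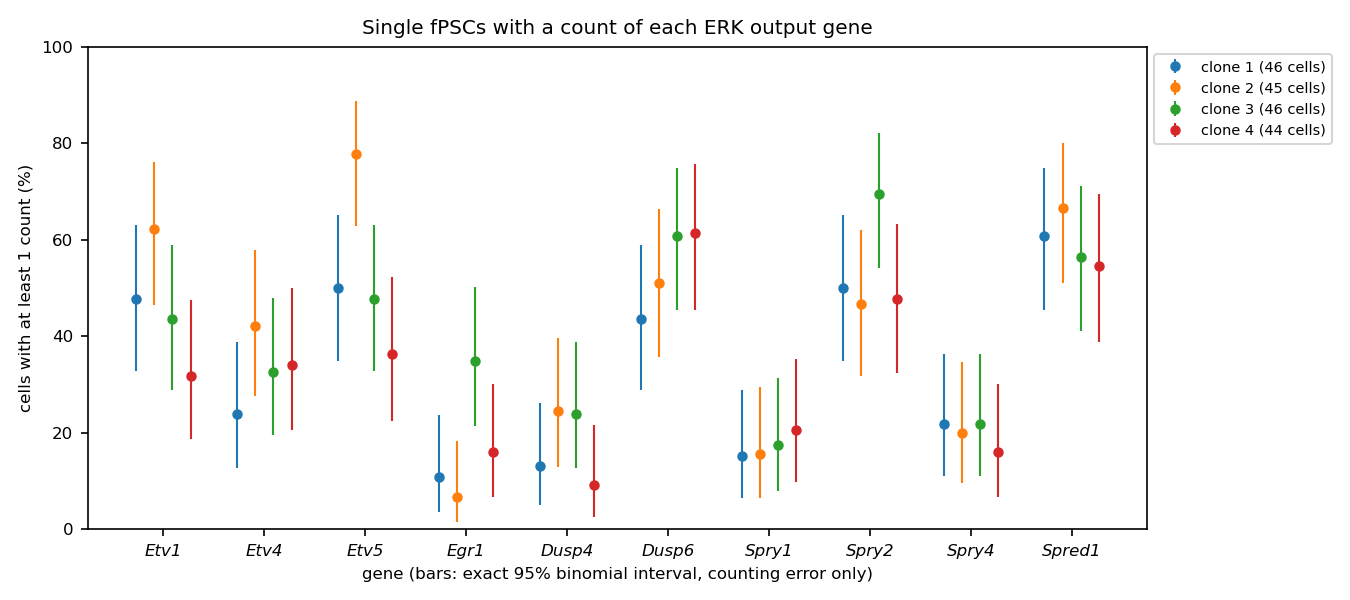
Share of cells of each clone with at least 1 count of each gene, with exact 95% binomial intervals that cover counting error only. Dusp6, Spry2 and Spred1 lie above 40% in all 4 clones, and Spry1 and Spry4 below 22%.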

How the data were processed

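RNA-seq of 19 libraries was deposited by the authors as 1 table of FPKM, made with cutadapt 1.11, TopHat2 2.1.1 and Cufflinks 2.1.1 on mm9 per the labels and the study's methods. The table holds no read counts, so a count test could not be used. Of 23608 entries 4 with repeated names were left out. FPKM were tested on the scale log2(FPKM + 1), on which changes of low genes come out too small, with limma 3.58.1 in R 4.3.3 (trend option, not robust), in 1 fit over mESCs, EpiLCs, EpiSCs and 7 fPSC libraries, on genes with 1 FPKM in 2 or more libraries. Genes past an adjusted p of 0.05 and a fold of 1.5 were called. Epiblast-derived lines and the deposits were compared in fits of their own. The limma step was tested on simulated data. Fragments per library were estimated from the smallest FPKM × length step of 7550 genes, and fragments per gene from its longest transcript, so both are approximate.

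For ChIP-seq the deposited values are RPKM per 100 bp bin (Bowtie2 2.2.2 on mm9, duplicates removed), with bins without reads left out, which were set to 0. For bisulfite sequencing the deposited values are methylated fractions between 0 and 1, without coverage. The study's methods state that ChIP replicates were merged after a check of their agreement. Whether the deposited tracks are the merged ones is not stated. Gene positions came from NCBIM37 (mm9), and 98.7% of 4042 methylation windows checked held a CpG there, against 49.1% at 100 kb away. Percentiles are over 22072 protein-coding genes with 1 position. Single-cell counts were deposited by the authors as raw counts, and whether they count reads or molecules is not stated. Cells with at least 500 genes were used, doublets were not called, and 1 cell name of clone 3 occurs 2 times. The barcode list was not used.

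The 10 genes, the other lists and the tests were chosen with earlier results of these data known. Named genes are the members and, for each list and comparison described, up to 2 called genes with the largest rise and 2 with the largest fall, of which 1 is not reported here. Alternatives were upper-quartile scaling, a fit of only the groups compared, a pseudocount of 0.1, all genes unfiltered, each deposit alone, no 46C library, the replicate number as a block, each library left out, all cells, and smaller windows at start sites. Replicate numbers did not pair the samples. Python 3.11.15, scipy 1.17.1 and pandas 2.3.3 were used for the rest.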

Additional observations from a re-analysis of the deposited data

How the results depend on the processing

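Of 670 member differences recomputed under an alternative, 574 kept their direction and their side of the threshold, 36 lost a call, 25 gained one and 35 changed sign, none of the 35 being called in the fit reported. Against mESCs the alternatives gave 5 to 8 calls of 10 in EpiLCs, 7 to 10 in fPSCs and 6 to 9 in EpiSCs, and none of them called a member lower there. Between later states, leaving out 1 library gave 0 to 2 calls between EpiSCs and EpiLCs and 0 between fPSCs and EpiLCs, in fits that assume that the lone library varies like the other groups. Between fPSCs and EpiLCs no filter gave 1 call, the first deposit 6 and the second 5. Between fPSCs and EpiSCs upper-quartile scaling gave 2 calls, the first deposit 3 and the second 4. The cause was not tested.

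Changes of sign were small or tied to the deposit. With the first deposit alone, Etv5 (0.21), Spry4 (0.11) and Egr1 (0.79) turned against EpiLCs, Spry2 (0.49) and Spry4 (0.30) against EpiSCs, Etv5 (0.65) against mESCs, and Etv4 (-0.33), Dusp4 (-0.052), Spry4 (-0.087) and Egr1 (-0.65) in epiblast-derived lines. With the second alone Etv4 (-0.20) and Spred1 (-0.051) turned against EpiLCs, and Etv5 (-0.45) and Egr1 (-0.60) against EpiSCs. Upper-quartile scaling turned Etv5 against mESCs (0.0031), Spry2 between fPSCs and EpiSCs (0.050), Dusp4 between EpiSCs and EpiLCs (-0.010), Etv1 in epiblast-derived lines (0.032) and between deposits (-0.10). Without 46C, Etv5 stood at 0.057 against mESCs and Spry2 at 0.079 against EpiSCs. CMT P11 alone gave -0.081 for Etv1 and 0.25 for Dusp4 between deposits. With 1 library left out, the ranges were -0.22 to 0.42 for Dusp4, -1.57 to 0.53 for Egr1 and -0.54 to 0.15 for Spry4 between EpiSCs and EpiLCs, -1.35 to 0.74 for Egr1 and -0.051 to 0.61 for Spred1 between fPSCs and EpiLCs, -0.0085 to 0.28 for Etv5, -0.062 to 0.89 for Spry1 and -0.083 to 0.019 for Spry2 between fPSCs and EpiSCs, -0.36 to 0.12 for Etv5 between fPSCs and mESCs, and -0.34 to 0.15 for Etv1 and -0.044 to 0.41 for Etv4 in epiblast-derived lines.

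The replicate block, fitted in the 6 libraries with numbered replicates, gave 8 calls in EpiLCs and 9 in EpiSCs against mESCs and 2 between them, the same counts as these libraries without the block, a fit chosen after seeing the data. The deviation of replicate 1 from its group mean was correlated between groups, gene by gene. It gave 0.21 between mESCs and EpiLCs, -0.20 between mESCs and EpiSCs and -0.14 between EpiLCs and EpiSCs. Same-numbered libraries thus showed no shift shared by all groups. Upper-quartile scaling moved the median of all genes by 0.11 between EpiLCs and mESCs and by -0.14 between deposits, where the share of calls that were higher went from 69.9% to 51.7%. Under it that share went from 41.2% to 51.4% between fPSCs and EpiSCs and from 48.7% to 61.9% in epiblast-derived lines. Groups of 2 libraries limit all comparisons, and the lowest mESC values, of Egr1 and Dusp4, rest on about 6 to 8 estimated fragments.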
